A study of Homo sapiens with 8 samples.

Results

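The hypoxia and glycolysis genes described here are 42 genes named for the response of cells to low oxygen and for the enzymes that break down glucose. They were taken from the deposited array values as the transcript clusters (groups of probes for a single gene locus) whose symbol in the platform annotation is on that list. For a gene with several clusters, the cluster with the highest mean over the 8 arrays was used. In that annotation 22 of the 42 genes were named, out of 14884 genes with a named cluster, and all 22 passed the filter on low signal. MXI1 had a second cluster, so the 22 genes held 23 clusters. The other 20 (HIF1A, P4HA1, P4HA2, PLOD2, PDK1, CA9, INSIG2L, SLC2A1, SLC2A3, SLC16A3, PFKL, PFKM, PFKP, PFKFB3, PFKFB4, ALDOA, ALDOC, ENO1, ENO2 and PKM) carried no named cluster in that table and were not analysed here. The 22 measured genes comprised 8 glycolysis enzymes and 14 genes tied to the hypoxia-inducible factors (HIFs), called HIF sensors and targets below. These 14 are the HIF subunit EPAS1, the oxygen sensors EGLN1 and EGLN3, and HIF targets.

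All 8 arrays held RNA from HEK293T, a cell line from human embryonic kidney with the large T antigen of SV40. In 5 arrays the cells had received an empty vector or an expression plasmid for TET1, an enzyme that oxidises 5-methylcytosine in DNA. The plasmids were TET1-CD and TET1-FL, usual names for the catalytic domain and the full-length protein, and mTET1-CD and mTET1-FL, their catalytically mutant versions. Cell sorting by fluorescence took place 3 days after the transfection, while the other 3 arrays held lentiviral shRNA clones, of which 1 was a control (shControl) and 2 carried different shRNAs against TET1 (shTET1#1 and shTET1#2). Each plasmid group and each control had 1 array. The labels name no oxygen level, no glucose level and no separate cultures, so no p-value below can be read as a spread between cultures. In the main fit the error comes from the difference between the TET1 clones and the change of wild type minus mutant between CD and FL. A prior over all clusters is added to it.

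HIFs are pairs of an oxygen-regulated alpha subunit, such as HIF1A or EPAS1, and a stable partner, ARNT. In the presence of oxygen, prolyl hydroxylases of the EGLN family mark the alpha subunit for destruction through VHL. When oxygen falls the pair binds DNA at a short core sequence and raises secreted factors, mitophagy receptors and most enzymes of glycolysis, which turns glucose into pyruvate and, through LDHA, into lactate.

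The core is ACGTG, or GCGTG in a variant form. The former was searched on both strands in the 250 bases upstream of the RefSeq gene start (assembly GRCh38.p14, the most upstream start of a gene with several), where CACGTG counts on each strand. A RefSeq promoter was found for 18 of the 22 genes, all but STC1, NDRG1, BNIP3L and VEGFA. Of these, 9 (50%) held ACGTG, against 18.6% of 27305 genes with a promoter in the same table. GCGTG, searched in the same way, was in 8 (44.4%) against 31.9%. The 9 with ACGTG were EGLN1, ERO1A, BNIP3, ANKRD37, HK2, GPI, GAPDH, PGK1 and LDHA. The windows of these 18 genes were also rich in CpG, with a median of 22.5 CpG dinucleotides against 10 over all genes and a median GC content of 70.4% against 57.6%. The part of base composition in these shares was not tested, and a match is no sign of a bound site. The sequences of 5 genes whose values recur below are shown, 3 HIF targets and 2 enzymes, read 5′ to 3′ on the gene's strand and ending at the base before the start, with ACGTG and its complement CACGT in capitals. They lie at chr10:131981924-131982173 on the minus strand (BNIP3), chr4:185396591-185396840 on the plus strand (ANKRD37), chr14:52695559-52695808 on the minus strand (ERO1A), chr11:18394313-18394562 on the plus strand (LDHA) and chrX:78103998-78104247 on the plus strand (PGK1).
BNIP3: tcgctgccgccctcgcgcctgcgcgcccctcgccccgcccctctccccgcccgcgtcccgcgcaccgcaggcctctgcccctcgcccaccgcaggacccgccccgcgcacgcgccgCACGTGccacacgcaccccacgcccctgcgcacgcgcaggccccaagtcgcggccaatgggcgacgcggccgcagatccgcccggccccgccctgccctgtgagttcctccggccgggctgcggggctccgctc
ANKRD37: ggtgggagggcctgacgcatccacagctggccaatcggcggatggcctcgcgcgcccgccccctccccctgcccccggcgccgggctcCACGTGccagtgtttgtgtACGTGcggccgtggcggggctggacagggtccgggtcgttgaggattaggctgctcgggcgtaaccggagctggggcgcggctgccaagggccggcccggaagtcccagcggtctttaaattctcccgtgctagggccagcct
ERO1A: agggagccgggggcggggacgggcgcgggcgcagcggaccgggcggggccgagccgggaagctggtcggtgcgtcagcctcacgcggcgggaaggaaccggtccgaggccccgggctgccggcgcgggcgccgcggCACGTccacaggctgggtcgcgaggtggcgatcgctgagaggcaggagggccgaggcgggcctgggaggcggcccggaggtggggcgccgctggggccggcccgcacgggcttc
LDHA: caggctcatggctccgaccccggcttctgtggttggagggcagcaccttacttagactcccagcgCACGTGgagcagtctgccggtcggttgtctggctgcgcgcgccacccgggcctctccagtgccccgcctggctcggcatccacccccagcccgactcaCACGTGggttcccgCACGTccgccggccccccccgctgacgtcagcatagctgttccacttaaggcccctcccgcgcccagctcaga
PGK1: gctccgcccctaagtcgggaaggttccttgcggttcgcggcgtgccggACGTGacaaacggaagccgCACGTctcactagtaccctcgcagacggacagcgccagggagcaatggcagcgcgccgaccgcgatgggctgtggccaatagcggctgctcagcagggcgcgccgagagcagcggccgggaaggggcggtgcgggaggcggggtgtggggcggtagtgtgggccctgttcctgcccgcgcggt
BNIP3 and ANKRD37 each held a palindromic CACGTG, from 134 and 162 bases before the start, and ANKRD37 held another core from 143 bases before it. ERO1A held a single ACGTG, from 114 bases before the start. LDHA held 3 sites, from 185, 87 and 73 bases before the start. PGK1 held ACGTG on each strand, from 202 and 183 bases before the start. Whether a factor was bound at any of them was not measured.

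TET1 itself served as the check of the labels. One TET1 cluster read 5.71 in shControl, 5.27 in shTET1#1, 6.20 in shTET1#2 and 5.86 with the vector on the log2 scale, against 11.80 to 12.10 with the 4 TET1 plasmids. A second TET1 cluster read 9.29 in shControl, 8.62 in shTET1#1 and 9.14 in shTET1#2. It read 9.51 with the vector, 10.42 with TET1-CD, 11.05 with mTET1-CD, 12.22 with TET1-FL and 12.47 with mTET1-FL. Both FL arrays were thus above both CD arrays on this second cluster, unlike on the first. TET1 was thus lower than in the control in shTET1#1 on both clusters, but in shTET1#2 it was higher on the former and near the control on the latter. That array is therefore called the array labelled shTET1#2, and every direction drawn from the TET1 shRNA arrays rests in part on it. HEK293T markers LIN28B (8.63 to 9.23) and PAX2 (6.40 to 6.62) lay above the array median on all 8 arrays, while the fibroblast gene DCN, the liver gene ALB and the endothelial gene PECAM1 lay above it on 0 and the liver gene APOA1 (6.02 to 6.48) on 8.

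On a log2 scale, where 1 unit is a doubling, the largest spread among the 22 genes belonged to STC1, whose lowest and highest arrays were 3.75 apart, or 13.4-fold. In bulk RNA, fewer expressing cells and less RNA per cell cannot be told apart. ADM (1.55), NDRG1 (1.52), KDM3A (1.31) and PGK1 (1.10) were the other members with a range over 1, and HK1 had the smallest range, 0.19. These 5 are 22.7% of the members, and 22.7% of all 28946 transcript clusters tested had such a range. The median range was 0.73 for the members and 0.66 for all clusters. The spread of the members was thus close to that of all clusters. TET1-FL was the highest array for 8 members (36.4%, against 13.7% of all clusters) and the vector array for 7 (31.8% against 15%). TET1-CD was the lowest for 7 (31.8% against 11.2%), and the array labelled shTET1#2 for 6 (27.3% against 18.3%).

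**Figure D1:**
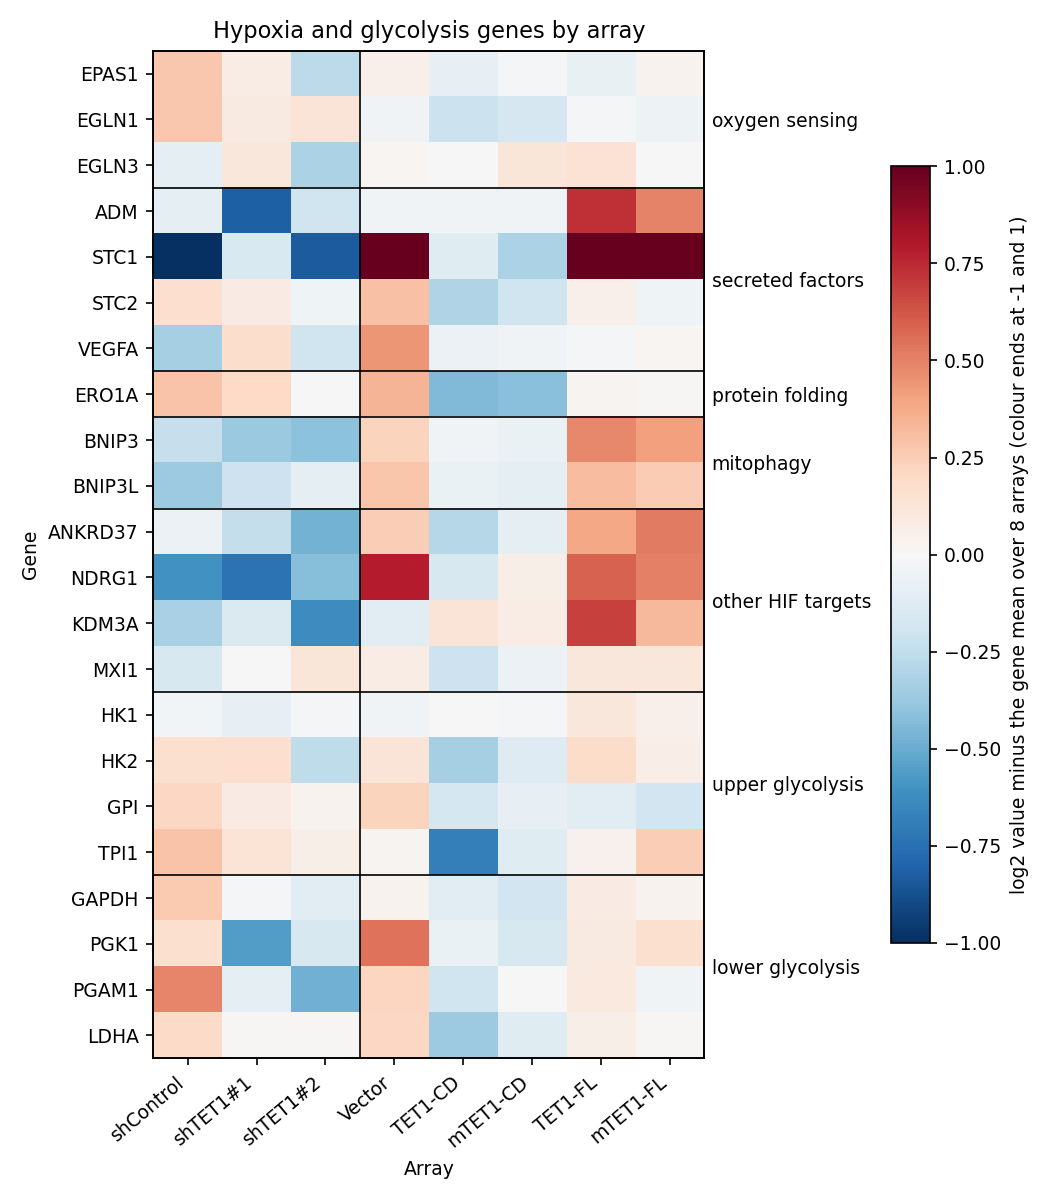
Deviation of each of the 22 genes from its own mean over the 8 arrays (log2, colour scale ending at -1 and 1), with genes in rows ordered by role and arrays in columns. The TET1-CD and mTET1-CD columns are mostly below the mean and the vector, TET1-FL and mTET1-FL columns mostly above it. STC1 shows the widest span, 3.75 from lowest to highest array.

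Among the genes of oxygen sensing, EPAS1, the alpha subunit of HIF-2, read 7.63 in shControl, 7.44 in shTET1#1, 7.10 in the array labelled shTET1#2, 7.41 with the vector, 7.28 with TET1-CD, 7.35 with mTET1-CD, 7.28 with TET1-FL and 7.40 with mTET1-FL. It was highest in shControl and lowest in the array labelled shTET1#2, and the CD and FL arrays overlapped. EGLN1, the main HIF prolyl hydroxylase, read 8.56 in shControl, 8.38 in shTET1#1, 8.41 in the array labelled shTET1#2, 8.26 with the vector, 8.07 with TET1-CD, 8.12 with mTET1-CD, 8.27 with TET1-FL and 8.24 with mTET1-FL. All 3 shRNA arrays were above all 5 others, and both CD arrays were the lowest. EGLN3, a prolyl hydroxylase that is itself a HIF target, read 5.66 in shControl, 5.86 in shTET1#1, 5.43 in the array labelled shTET1#2, 5.77 with the vector, 5.75 with TET1-CD, 5.87 with mTET1-CD, 5.89 with TET1-FL and 5.75 with mTET1-FL. Its values lay close to the array medians (5.47 to 5.55), and the shRNA, CD and FL arrays overlapped. Of the HIF machinery outside the 22 genes, 5 of 13 listed genes were measured (ARNT, ARNT2, CUL2, CREBBP and EP300), and none passed limma's adjusted test in any comparison below. Of all clusters, 5.41% passed it in the comparison of the shRNA arrays with the others, and 0% in each of the rest.

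Among the secreted factors, STC1, a calcium- and phosphate-regulating glycoprotein, read 3.93 in shControl, 6.13 in shTET1#1, 5.45 in the array labelled shTET1#2, 7.55 with the vector, 6.16 with TET1-CD, 5.97 with mTET1-CD, 7.67 with TET1-FL and 7.39 with mTET1-FL. Both CD arrays lay near the TET1 shRNA clones, the vector and FL arrays lay above them, and shControl was far the lowest. The shControl and shTET1#2 values were below their array medians, so differences from them may be understated. ADM, the vasodilator peptide adrenomedullin, read 6.58 in shControl, 5.86 in shTET1#1, 6.48 in the array labelled shTET1#2, 6.64 with the vector, TET1-CD and mTET1-CD alike, 7.40 with TET1-FL and 7.17 with mTET1-FL. The 3 equal values were identical to all deposited digits, and both FL arrays were above the rest. VEGFA, the angiogenic growth factor, read 7.11 in shControl, 7.62 in shTET1#1, 7.24 in the array labelled shTET1#2, 7.89 with the vector, 7.39 with TET1-CD, 7.41 with mTET1-CD, 7.44 with TET1-FL and 7.46 with mTET1-FL. The vector array was the highest, and the 4 TET1 plasmid arrays were nearly level. STC2, the relative of STC1, ranged from 8.71 with TET1-CD to 9.31 with the vector.

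NDRG1, a stress-responsive differentiation gene, read 6.78 in shControl, 6.64 in shTET1#1, 6.95 in the array labelled shTET1#2, 8.17 with the vector, 7.22 with TET1-CD, 7.44 with mTET1-CD, 7.97 with TET1-FL and 7.88 with mTET1-FL. The arrays fell into 3 levels without overlap, the shRNA clones lowest, then CD, then FL and the vector. BNIP3, a mitophagy receptor of the outer mitochondrial membrane, read 9.54 in shControl, 9.40 in shTET1#1, 9.35 in the array labelled shTET1#2, 9.99 with the vector, 9.73 with TET1-CD, 9.70 with mTET1-CD, 10.25 with TET1-FL and 10.17 with mTET1-FL. It showed the shRNA arrays lowest, then CD, then the vector, then FL. Its relative BNIP3L ranged from 9.32 in shControl to 9.99 with TET1-FL, and here too all shRNA arrays were below all others. KDM3A, a histone H3 lysine demethylase, read 7.41 in shControl, 7.59 in shTET1#1, 7.11 in the array labelled shTET1#2, 7.62 with the vector, 7.87 with TET1-CD, 7.81 with mTET1-CD, 8.42 with TET1-FL and 8.06 with mTET1-FL. Unlike NDRG1, it was above the vector with every TET1 plasmid.

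ERO1A, the oxidase that supplies disulfide bonds in the endoplasmic reticulum, read 9.64 in shControl, 9.55 in shTET1#1, 9.35 in the array labelled shTET1#2, 9.69 with the vector, 8.91 with TET1-CD, 8.93 with mTET1-CD, 9.38 with TET1-FL and 9.36 with mTET1-FL. Both CD arrays stood below all 6 others. ANKRD37, an ankyrin-repeat protein, read 6.48 in shControl, 6.31 in shTET1#1, 6.07 in the array labelled shTET1#2, 6.79 with the vector, 6.26 with TET1-CD, 6.44 with mTET1-CD, 6.93 with TET1-FL and 7.06 with mTET1-FL. The FL and vector arrays were its 3 highest, and the CD arrays overlapped the shRNA arrays. MXI1, a repressor in the MYC network, read 7.06 in shControl, 7.22 in shTET1#1, 7.35 in the array labelled shTET1#2, 7.30 with the vector, 7.01 with TET1-CD, 7.16 with mTET1-CD and 7.34 with TET1-FL and mTET1-FL. Its second cluster ran from 6.13 in shTET1#1 to 6.80 with the vector, and the clusters differ in their order of arrays.

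**Figure D2:**
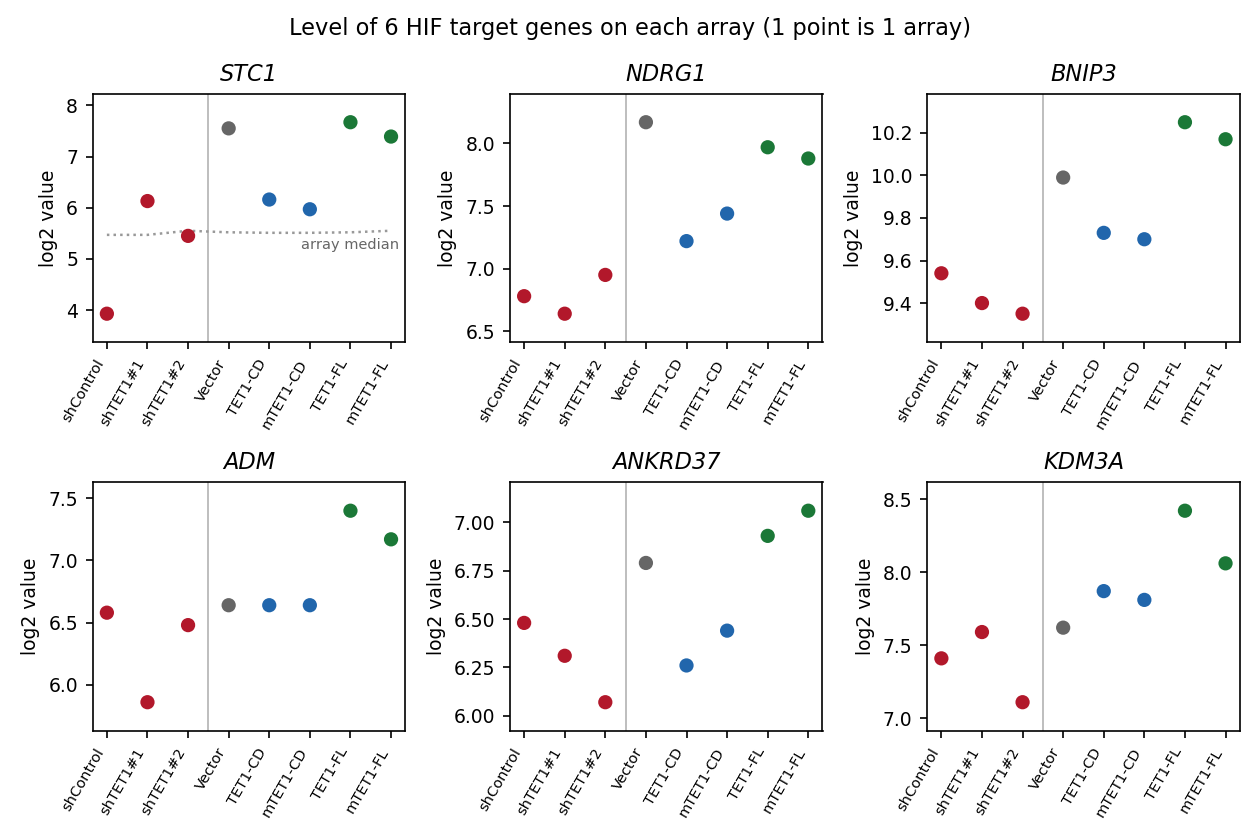
Deposited log2 values (vertical axis, its own scale in each panel) of 6 HIF target genes, with 1 point for each of the 8 arrays, coloured by kind (shRNA red, vector grey, CD blue, FL green), and the array median as a dotted line for STC1. NDRG1 falls into 3 levels, from 6.64 to 6.95 in the shRNA clones, 7.22 and 7.44 with the CD plasmids, and 7.88 to 8.17 with FL and the vector, and STC1 runs from 3.93 to 7.67.

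Of the upper glycolysis enzymes, HK1, the constitutive hexokinase, read 7.47 in shControl, 7.42 in shTET1#1, 7.49 in the array labelled shTET1#2, 7.46 with the vector, 7.50 with TET1-CD, 7.49 with mTET1-CD, 7.61 with TET1-FL and 7.55 with mTET1-FL. Its 8 arrays were the closest of any member. HK2, the inducible hexokinase, ranged from 7.79 with TET1-CD to 8.31 with TET1-FL. GPI, which turns glucose-6-phosphate into fructose-6-phosphate, read 11.08 in shControl, 10.96 in shTET1#1, 10.91 in the array labelled shTET1#2, 11.10 with the vector, 10.70 with TET1-CD, 10.79 with mTET1-CD, 10.76 with TET1-FL and 10.68 with mTET1-FL. All 4 TET1 plasmid arrays were below the vector and the shRNA arrays, with no difference in order between CD and FL. TPI1, which interconverts the triose phosphates, read 8.18 in shControl, 8.03 in shTET1#1, 7.95 in the array labelled shTET1#2, 7.92 with the vector, 7.21 with TET1-CD, 7.77 with mTET1-CD, 7.93 with TET1-FL and 8.14 with mTET1-FL. TET1-CD was the lowest, and mTET1-CD was below all the other arrays.

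Of the lower glycolysis enzymes, PGK1, the first ATP-forming enzyme of glycolysis, read 9.24 in shControl, 8.52 in shTET1#1, 8.92 in the array labelled shTET1#2, 9.62 with the vector, 9.02 with TET1-CD, 8.92 with mTET1-CD, 9.17 with TET1-FL and 9.24 with mTET1-FL. The vector array was the highest and shTET1#1 the lowest. PGAM1, the phosphoglycerate mutase, read 8.91 in shControl, 8.33 in shTET1#1, 7.95 in the array labelled shTET1#2, 8.64 with the vector, 8.23 with TET1-CD, 8.43 with mTET1-CD, 8.52 with TET1-FL and 8.39 with mTET1-FL. The control clone was its highest array, and the CD and FL arrays overlapped. LDHA, which makes lactate, read 8.25 in shControl, 8.08 in shTET1#1, 8.07 in the array labelled shTET1#2, 8.27 with the vector, 7.70 with TET1-CD, 7.95 with mTET1-CD, 8.12 with TET1-FL and 8.07 with mTET1-FL. Both CD arrays were below all 6 others. GAPDH, which oxidises glyceraldehyde-3-phosphate, ranged from 8.30 with mTET1-CD to 8.75 in shControl. GAPDH, LDHA, PGK1, PGAM1 and TPI1 have processed pseudogenes that can share probes with them, so their values are uncertain in that respect. The annotation named clusters for TPI1P2 and TPI1P3. TPI1P2 read 5.92 in shControl, 5.71 in shTET1#1, 5.21 in the array labelled shTET1#2 and 5.39 with the vector. With the plasmids it read 6.72 (TET1-CD), 6.43 (mTET1-CD), 7.31 (TET1-FL) and 6.85 (mTET1-FL). Both FL arrays were thus above both CD arrays, as for TPI1. TPI1P3 lay between 4.5 and 5.1. Whether these clusters share signal with TPI1 was not tested.

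The construct comparison asked how the FL plasmids differed from the CD plasmids, averaged over wild type and mutant. With FL, 21 of the 22 genes (95.5%, against 50.5% of all clusters) had the higher mean, GPI being the exception at -0.02 (0.0087 with cyclic loess). The median difference was 0.26 on the log2 scale against 0.0031 over all clusters. STC1 was 1.47 ± 0.25 higher (SE, 2 arrays on each side), ANKRD37 0.65 ± 0.14, ADM 0.65 ± 0.24, NDRG1 0.59 ± 0.17, TPI1 0.55 ± 0.15, BNIP3 0.49 ± 0.12, ERO1A 0.45 ± 0.13 and BNIP3L 0.36 ± 0.12. No member passed limma's test with Benjamini-Hochberg adjustment over all 28946 clusters, as no cluster did (0%). The lowest adjusted p among the members was 0.137, for STC1, and the lowest of any cluster was 0.114. At an unadjusted p under 0.05, limma counted the 8 members just named (36.4%), against 13.7% of all clusters. At the other end, EGLN3 (0.014) and EPAS1 (0.025) were level between the constructs, and EGLN3 was slightly negative with each array centred on its median (-0.011).

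By role, all 14 HIF sensors and targets were above 0, with a median of 0.38, and 7 of the 8 glycolysis enzymes were, with a median of 0.22. The wild-type and the mutant pair share no array. TET1-FL was above TET1-CD in 22 of 22 genes (48.6% of all clusters). For the mutants, mTET1-FL was above mTET1-CD in 19 (50.3% of all clusters), the exceptions being PGAM1, EGLN3 and GPI. So 19 genes (86.4%) were higher with FL in both pairs, against 33.5% of all clusters. Both pairs differed by more than 0.5 log2 units for 3 genes (13.6%, against 5.11% of all clusters), namely STC1, ANKRD37 and ADM. STC1 was the only member at least 2-fold apart in either pair (background 3.28% of clusters in the wild-type pair and 2.47% in the mutant pair).

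**Figure D3:**
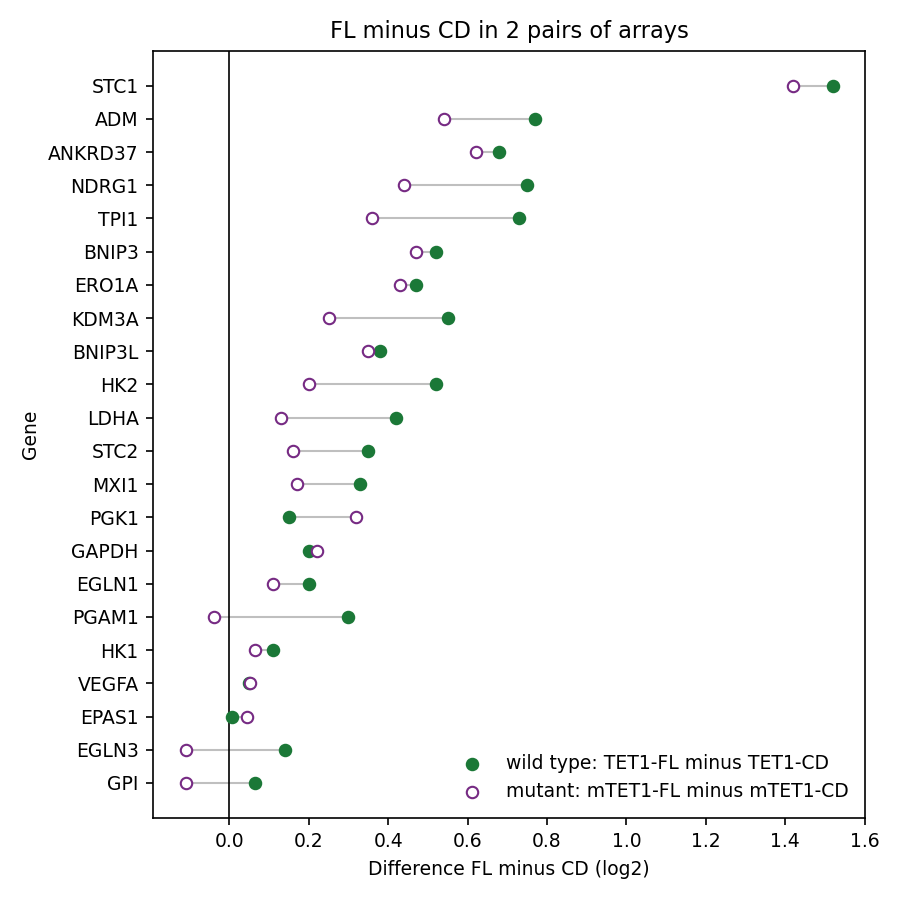
Log2 difference between FL and CD plasmids for each of the 22 genes, for the wild-type pair (filled) and the mutant pair (open), with a line at 0. All 22 wild-type points and 19 of the 22 mutant points lie above 0, and STC1 is farthest to the right.

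The ACGTG form of the promoter core can be set beside these differences. The 9 genes with ACGTG in the window had a median FL minus CD difference of 0.27 (-0.02 to 0.65), and the 9 with a promoter but without it had a median of 0.25 (0.01 to 0.65). STC1 (1.47), NDRG1 (0.59), BNIP3L (0.36) and VEGFA (0.051) had no promoter sequence and are in neither set. Sites outside the window were not searched for. BNIP3, ANKRD37 and ERO1A, shown above, were in the former set with 0.49, 0.65 and 0.45, as were LDHA at 0.27 and PGK1 at 0.24. ADM (0.65) and TPI1 (0.55) were in the set without ACGTG. The variant GCGTG was not part of this split, and EPAS1, ADM, STC2 and KDM3A in that set held it.

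Against the empty vector, which both plasmid kinds share, most of the genes were lower with CD, and they split with FL. With CD, 18 members were below the vector, 3 above (13.6%, against 49.1% of all clusters) and ADM at 0. The median difference was -0.36 against -0.0021 over all clusters. STC1 was -1.49 ± 0.31, NDRG1 -0.84 ± 0.21, ERO1A -0.77 ± 0.17, PGK1 -0.65 ± 0.22, STC2 -0.55 ± 0.16 and LDHA -0.45 ± 0.17. None passed limma's adjusted test, nor did any cluster (0%), and the adjusted p was 0.173 for STC1, 0.192 for NDRG1 and 0.175 for ERO1A. At an unadjusted p under 0.05, limma counted 6 members (27.3%), against 16.6% of all clusters. The genes above the vector were KDM3A (0.22), EGLN3 (0.040) and HK1 (0.029). STC1 was the member at least 2-fold lower on both arrays, at -1.40 with TET1-CD (background 3.68% of clusters) and -1.59 with mTET1-CD (background 3.14%).

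With FL, 10 members were above the vector (45.5%, against 50.3% of all clusters) and 12 below, with a median of -0.0039. ADM was 0.65 ± 0.29 (limma adjusted p = 0.422) and KDM3A 0.62 ± 0.25 (adjusted p = 0.388), and BNIP3 was 0.22. VEGFA (-0.44), PGK1 (-0.42) and GPI (-0.37) were lowest. None passed limma's adjusted test (0% of all clusters did), and 0 members against 13.4% of all clusters had an unadjusted p under 0.05. Neither FL array had a member 2-fold from the vector (background 3.60% of clusters for TET1-FL and 3.03% for mTET1-FL). ADM and KDM3A were thus highest with FL, whereas VEGFA, PGK1 and GPI were highest with the vector.

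Averaged over the 4 TET1 plasmids, 18 members were below the vector and 4 above (18.2%, against 50.2% of all clusters). The median was -0.17 against 0.0014 over all clusters. STC1 was -0.76 ± 0.28, ERO1A -0.55 ± 0.15 and NDRG1 -0.54 ± 0.19, with limma adjusted p-values of 0.319, 0.241 and 0.303. KDM3A (0.42), ADM (0.33) and HK1 (0.073) stood highest. None passed limma's adjusted test (0% of all clusters did), and 6 members (27.3%) had an unadjusted p under 0.05, against 15% of all clusters. In 15 of the 22 genes (68.2%) both CD arrays were below the vector and both FL arrays, an order chosen after the values were seen, and 17.9% of all clusters had it. The reverse order held for 0 members and 17.7% of all clusters. The 15 were EGLN1, STC1, STC2, VEGFA, ERO1A, BNIP3, BNIP3L, ANKRD37, NDRG1, MXI1, HK2, TPI1, GAPDH, PGK1 and LDHA. The vector had 1 array, so its own spread enters none of these values.

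**Figure D4:**
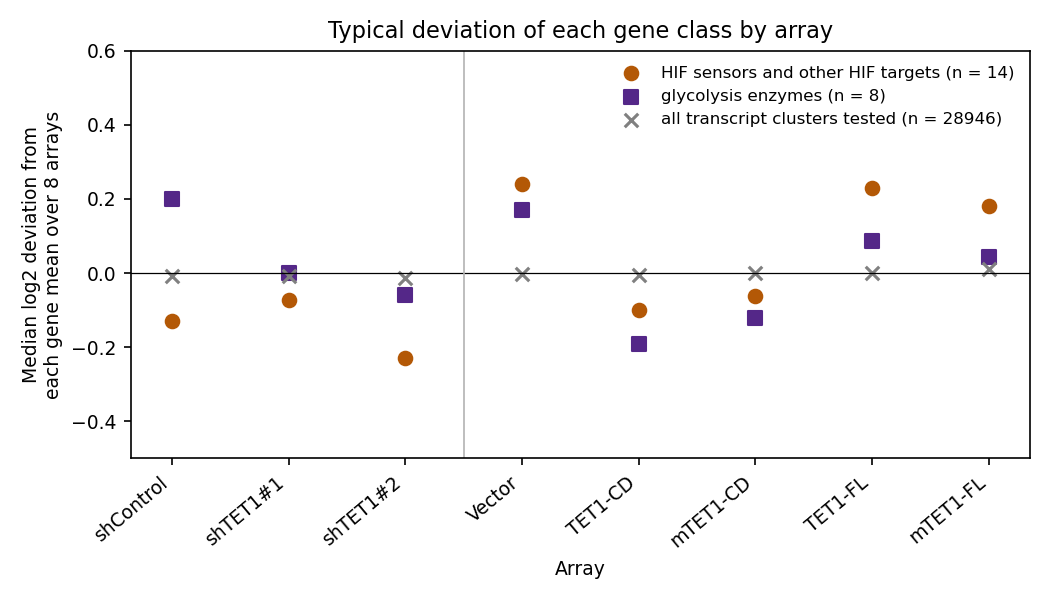
Median deviation from each gene's own mean over the 8 arrays (log2), for the 14 HIF sensors and targets and the 8 glycolysis enzymes, with all tested clusters as crosses, on each array. The HIF class is highest with the vector (0.24), TET1-FL (0.23) and mTET1-FL (0.18), and lowest in the array labelled shTET1#2 (-0.23). The glycolysis class is highest in shControl (0.20) and lowest with TET1-CD (-0.19).

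Catalytic activity was asked about by wild type minus mutant. The members lay on both sides, with 10 above 0 (45.5%, against 50.9% of all clusters) and 12 below. The median was -0.0035, and 13 were above 0 with each array centred on its median. TPI1 was lowest at -0.38 ± 0.15 (limma adjusted p = 1), followed by ANKRD37 (-0.16) and LDHA (-0.099), and STC1 (0.24), KDM3A (0.21) and ADM (0.12) were highest. None passed limma's adjusted test (0% of all clusters did), and 1 member, TPI1, had an unadjusted p under 0.05, against 1.96% of all clusters. TPI1 was lower with wild type in both pairs, at -0.56 with CD and -0.20 with FL, and limma's test of the difference between the pairs gave it an adjusted p of 1. Between wild type and mutant 7 of the 22 members were above 0 in the CD pair and 17 in the FL pair. Over all clusters 48.9% and 49.9% were. The limma test of that difference between pairs, on 1 residual degree of freedom, called 0 members and 0 clusters, with 0 members and 243 clusters at an unadjusted p under 0.05. No member was 2-fold apart in either pair (background 0.563% of clusters for CD and 0.736% for FL).

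Knockdown was asked about by TET1 shRNA minus control shRNA. Here 17 members were below the control and 5 above (22.7%, against 47.7% of all clusters above it). The median was -0.16 against -0.01 over all clusters. All 8 glycolysis enzymes were below the control, with a median of -0.20. PGAM1 was -0.77 ± 0.23, PGK1 -0.52 ± 0.22 and ADM -0.42 ± 0.29 (SE, 2 clones against 1), with limma adjusted p-values of 0.579, 0.666 and 0.791. STC1 went the other way at 1.86 ± 0.31 (limma adjusted p = 0.424), and VEGFA (0.32) and MXI1 (0.22) followed it. None passed limma's adjusted test (0% of all clusters did), and 2 members, STC1 and PGAM1, had an unadjusted p under 0.05, against 7.93% of all clusters. STC1 was the member at least 2-fold apart in each clone, by 2.20 in shTET1#1 (background 1.99% of clusters) and 1.52 in the array labelled shTET1#2 (background 3.28%). The STC1 value rests on the control clone, which was its lowest array by over 1 unit. When the vector array stood in for the control clone, STC1 was -1.77, VEGFA -0.46 and MXI1 -0.011, while 2 members were above 0 and the median was -0.26.

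The shRNA clones and the plasmid cells were handled differently, so sorting, transfection and infection cannot be told apart from each other or from an array batch here. Of the members, 3 were lower in the shRNA arrays by limma's adjusted test (13.6%, against 3.65% of all clusters called lower and 5.41% called in either direction). STC1 fell by 1.78 ± 0.18 (adjusted p = 0.0262), NDRG1 by 0.95 ± 0.12 (0.0332) and BNIP3 by 0.54 ± 0.087 (0.0433), relative to the plasmid and vector arrays. The shRNA control and TET1 clones have terms of their own in this fit, so their difference is not in its error, and the STC1 groups overlapped (3.93 to 6.13 against 5.97 to 7.67). A fit with the 2 kinds of array as the only groups, on 6 residual degrees of freedom and added after seeing the data, called 1 member (4.55%), NDRG1 (limma adjusted p = 0.0441), but not BNIP3 (0.0714) or STC1 (0.104), and 4.27% of all clusters were called in it, 2.39% as lower. Without the CD arrays, the FL arrays, the wild-type plasmid arrays or the mutant plasmid arrays no cluster was called. In each of those fits the difference between the TET1 clones is the only residual left, so the calls were not tested against the same error. Without the control clone no member was called, STC1 being -1.16 (limma adjusted p = 0.0707) and NDRG1 at 0.0573. With no filter on low signal no member was called either, limma's adjusted p being 0.057 for STC1 and 0.0716 for NDRG1.

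Short of limma's threshold in the same comparison were KDM3A (-0.59 ± 0.15), ADM (-0.59 ± 0.17), ANKRD37 (-0.41 ± 0.10) and BNIP3L (-0.36 ± 0.09), and on the other side EGLN1 (0.26 ± 0.088), ERO1A (0.26) and TPI1 (0.26). At an unadjusted p under 0.05, limma counted 9 members (40.9%), against 26.6% of all clusters, and all 9 were HIF sensors or targets. In 5 members (22.7%: ADM, BNIP3, BNIP3L, NDRG1 and KDM3A) all 3 shRNA arrays were below all 5 others, against 8.18% of clusters, and in 1 (4.55%, EGLN1) all were above, against 7.67%. The vector array set against shControl gave STC1 3.63 (12.4-fold) and NDRG1 1.39, the 2 members at least 2-fold apart (background 4.54% of clusters). Against the vector, shTET1#1 was at least 2-fold lower for STC1, NDRG1 and PGK1 (background 3.81%) and the array labelled shTET1#2 for STC1 and NDRG1 (background 4.65%). The glycolysis enzymes had 5 members above 0 and 3 below, with a median of 0.059, and the HIF class had 4 above and 10 below, with a median of -0.28. Over all clusters 47.8% were above 0, with a median of -0.014.

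Other genes of the same pathways, from lists outside the members, were read the same way. These lists were also chosen with earlier results of these data known, so their shares are no independent test. Of 30 further HIF targets, 20 were measured, and 15 of them were higher with FL than CD (median 0.19). The other 5 were slightly lower, with CCNG2 (-0.028) and KDM4B (-0.026) the lowest. Over all clusters 50.5% were higher, with a median of 0.0031. None of the 20 passed limma's adjusted test (0% of all clusters did). HILPDA, which blocks lipid droplet breakdown, was highest at 0.67 ± 0.15 (adjusted p = 0.177), followed by DDIT4, an inhibitor of mTORC1, at 0.49. HILPDA read 8.00 in shControl, 7.96 in shTET1#1, 7.99 in the array labelled shTET1#2, 9.11 with the vector, 8.19 with TET1-CD, 8.41 with mTET1-CD, 9.04 with TET1-FL and 8.90 with mTET1-FL. It had the order of NDRG1, and it fell by 0.75 ± 0.11 in the shRNA arrays relative to the others (limma adjusted p = 0.0370), the 1 of these 20 genes called there, against 3.65% of all clusters called lower and 5.41% in either direction. That call is subject to the same loss, since no cluster was called without the CD, FL, wild-type or mutant arrays. Of 21 further glycolysis and lactate genes, 5 were kept, and 1 of them was higher with FL than CD (PGM1, 0.035), with a median of -0.17. LDHB, the subunit that favours pyruvate, was 0.46 higher in the shRNA arrays, short of the threshold (limma adjusted p = 0.0553).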

How the data were processed

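Total RNA (100 ng a sample) was measured on 8 Affymetrix arrays. Values deposited by the authors are log2 expression per transcript cluster, and the tools named per the submitters' processing notes are RMA and Affymetrix Expression Console 1.3.1. Which genome build was used is not given in the sources used here. Of 53981 deposited entries, 364 had no value. A cluster was kept where at least 2 of 8 arrays lay above their own median, which left 28946. Array medians were 5.47 to 5.55, and no pair of arrays was identical (r 0.932 to 0.988). The number of arrays limits precision.

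All arrays entered a model in limma 3.58.1 (R 4.3.3) whose terms were construct, mutant plasmid, wild-type plasmid, vector, TET1 shRNA and control shRNA, with 2 residual degrees of freedom and a prior of 2.89. These degrees are the clone difference and the change of wild type minus mutant between CD and FL. P-values were adjusted over all kept clusters (Benjamini-Hochberg, threshold 0.05). Differences between single arrays have no test and were counted at 2-fold. Scripts were tested on simulated data. The members and the other gene lists (HIF machinery, further HIF targets, further glycolysis and lactate genes, pyruvate entry, ATF4 and glucose sensing) were chosen with earlier results of these data known. Values on all arrays are given for STC1, ADM, NDRG1, EPAS1, EGLN1, EGLN3 and the members that were among the 3 highest or lowest in a comparison, past the threshold, or 2-fold apart between single arrays. STC2, BNIP3L, HK2 and GAPDH met none of these and are given by their range. Of the other lists, the 2 highest and 2 lowest genes could be named. The alternatives tried were centring, cyclic loess, other filters, 1 cluster per symbol, limma-trend, another choice of MXI1 cluster, leaving out arrays and the vector as control.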

Additional observations from a re-analysis of the deposited data

How the results depend on the processing

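No paired analysis was possible because 6 of the 7 groups have 1 array and the groups share no replicate numbers in the labels, so replicate number could not be a block (wild type and mutant are terms of the fit, and FL minus CD is taken within them). The limits are the number of arrays and the 2 residual degrees of freedom, and background limits STC1 and EGLN3 where they lie near or below the array median. For TET1 plasmids minus vector, 1 cluster was called with arrays centred on their medians, and 10 members were above 0 without the CD arrays. For FL minus CD, EGLN3 was -0.011 centred, -0.0026 with cyclic loess and -0.11 without the wild-type arrays, and GPI was 0.0087 with cyclic loess and 0.066 without the mutant arrays. EGLN3 minus vector with CD was -0.017 without the mutant arrays. Of 22 members, 18 were higher with FL in both pairs under centring or cyclic loess, and 15 and 14 had both CD arrays below the vector and FL arrays (settings chosen after seeing the data). For TET1 shRNA minus control, 5 clusters were called with 1 cluster per symbol, MXI1 was -0.13 with its lower cluster, and with the vector as control 2 members were above 0 with a median of -0.26, STC1 at -1.77, VEGFA at -0.46 and MXI1 at -0.011. For wild type minus mutant without the CD arrays, 17 members were above 0 and LDHA was 0.047.

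For the shRNA arrays against the others, 3 members were called. This was 0 with no filter (135 clusters called), 0 without the control clone (448 clusters), and 0 members and 0 clusters without the CD, FL, wild-type or mutant arrays. It was 5 with 1 cluster per symbol (1295 of 10797 clusters called) and 1 in the fit of 2 groups added after seeing the data (1235 of 28946 clusters), and limma-trend called 2550 clusters (0 in each of the other 6 comparisons). Leaving out each TET1 clone gave 2751 to 2858 clusters. Without the CD arrays 5 members were above 0. At 1.5-fold in place of 2-fold, over 13 differences between single arrays, 40 values of the 22 members were past the fold. Of the 28946 clusters, 43705 values were. These raw counts come from sets of unlike size and are not a contrast between them. The causes of these shifts were not tested. In the fits without the CD, FL, wild-type or mutant arrays the difference between the TET1 clones is the only residual.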

Other observations

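Genes of the ATF4 response and of glucose sensing, outside the HIF and glycolysis lists, were read on the same arrays (11 of 12 listed genes). In the shRNA arrays relative to the plasmid and vector arrays, TXNIP, a glucose-induced arrestin that limits glucose uptake, fell by 1.82 ± 0.15 (limma adjusted p = 0.0197). ATF3, a stress-induced transcription factor, fell by 1.88 ± 0.18 (limma adjusted p = 0.0238), and DDIT3 fell by 1.34 ± 0.14 (limma adjusted p = 0.0268). TXNIP read 7.49 in shControl, 7.32 in shTET1#1, 6.87 in the array labelled shTET1#2, 9.64 with the vector, 8.57 with TET1-CD, 8.49 with mTET1-CD, 9.14 with TET1-FL and 9.37 with mTET1-FL. Over all clusters, 3.65% were called lower and 5.41% in either direction. The list was chosen with earlier results of these data known, so its 3 calls among 11 genes are no test of the list. The difference between the control and TET1 clones is not in the error of this fit. No cluster was called without the CD, FL, wild-type or mutant arrays. For TXNIP the shRNA arrays were lowest, then CD, then FL, then the vector. DDIT3, a stress transcription factor, read 5.71, 5.88 and 5.39 in shControl, shTET1#1 and the array labelled shTET1#2, 6.63 with the vector, 6.58 and 6.57 with TET1-CD and mTET1-CD, and 7.63 and 7.60 with TET1-FL and mTET1-FL. It was thus level between the vector and CD and higher with both FL plasmids, as ADM was. With FL minus CD, 9 of the 11 genes were above 0 (median 0.30), against 50.5% of all clusters. None of them passed limma's adjusted test (0% of all clusters did).

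Of 17 genes of pyruvate entry and gluconeogenesis, 9 were kept. FL minus CD was above 0 for 3 of them (median -0.11), against 50.5% of all clusters. PDP1, a pyruvate dehydrogenase phosphatase, was at 0.43 and DLAT, a subunit of pyruvate dehydrogenase, at -0.42. In the shRNA arrays PDP1 fell by 0.69 relative to the others (limma adjusted p = 0.0364), the 1 call among these 9 genes. Of all clusters, 3.65% were called lower and 5.41% in either direction, and the PDP1 call is subject to the same loss. This list too was chosen with earlier results of these data known. DLAT was 0.46 higher without passing the threshold (limma adjusted p = 0.0594).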
